A study of Rattus norvegicus with 10 samples.

Results

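Steroid hormone receptors are transcription factors that bind a small lipid-soluble hormone and then bind DNA at the genes they control. The receptors described here were Esr1 and Esr2, the 2 estrogen receptors (alpha and beta), Pgr, the progesterone receptor, Nr3c1, the glucocorticoid receptor, Nr3c2, the mineralocorticoid receptor, and Esrra, the estrogen-related receptor alpha, an orphan relative of the estrogen receptors with no known natural steroid ligand. They were taken as every probe set of the array that the platform annotation names for one of these 6 genes, out of 10411 named genes. That gave 7 probe sets of 15866: 1 for each gene and 2 for Nr3c1, none of them shared with another gene. Of these, 2 were bright enough to be compared between diets, 1 for Nr3c1 and 1 for Nr3c2, and the other 5 were too dim.

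The animals were female Sprague-Dawley rats on purified diets, sampled at postnatal day 50. RNA from the number 4 mammary gland was pooled and hybridised to Affymetrix RAE230 oligonucleotide arrays. The 10 arrays comprised 4 of the SPI diet (numbered 2, 3, 4 and 5), 3 of the GEN diet (1, 3 and 5) and 3 of the CAS diet (1, 2 and 3). SPI and CAS are the usual short names of soy protein isolate and casein in diet studies, and GEN stands for genistein, an isoflavone of soy known as a ligand of estrogen receptors. The labels give no dose and no other treatment. Each array carried a pool of 2 animals per the labels, except that the text for CAS 3 speaks of 7. The labels also say that 3 labelled targets were made from every pool without telling which arrays share one, so the p-values below measure the spread between arrays, which may be partly technical. The sample labels speak of mammary epithelial cells while the labelling text names the whole gland, and the design text has a phrase on colon. Epithelial and milk genes were bright on every array: Krt8 ranged from 1409.0 to 5259.7 and Csn2 from 2245.3 to 18875.6 over the 10 arrays. Col1a1, a collagen of fibroblasts, ranged from 5941.2 to 20511.4, so the RNA was not of epithelium alone. Of the adipocyte genes, Lep, a fat hormone, stayed between 6.6 and 18.8, Cfd, a secreted protease of fat, ranged from 541.4 to 2797.2, and the 10 bright ones had a mean log2 signal of 9.888 to 10.166.

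In the mammary gland the estrogen receptor alpha of luminal cells drives duct growth at puberty, and it induces the progesterone receptor, which governs side branching. Glucocorticoids act through Nr3c1 in nearly every cell type of the gland and support milk protein genes together with prolactin. Nr3c2 binds both aldosterone and glucocorticoids, and the enzyme Hsd11b2 protects it from glucocorticoids by inactivating them in the cell.

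The start regions of the receptor genes are shown because estrogen and glucocorticoid receptors act through short DNA words that can be read in them. RefSeq promoter windows of the GRCr8 build, from 250 bases before to 50 after the start site, were found for 5 of the 6 genes, with 2 windows for Nr3c1. Nr3c1 is printed as a receptor measured well above the dim range and Pgr as the classical estrogen-induced receptor. Capitals mark the GC box GGGCGG on either strand, so CCGCCC is the same word read on the other strand, and in Nr3c1 the longest run of capitals holds 2 overlapping boxes.
Nr3c1, chr18:31613390-31613689, minus strand: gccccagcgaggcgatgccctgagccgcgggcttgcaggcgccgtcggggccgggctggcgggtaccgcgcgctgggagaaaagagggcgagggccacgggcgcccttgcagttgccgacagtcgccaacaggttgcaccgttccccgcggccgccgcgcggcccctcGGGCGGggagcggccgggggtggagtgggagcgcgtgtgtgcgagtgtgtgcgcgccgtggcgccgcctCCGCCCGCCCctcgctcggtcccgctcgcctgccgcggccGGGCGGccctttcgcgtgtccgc
Pgr, chr8:14354148-14354447, plus strand: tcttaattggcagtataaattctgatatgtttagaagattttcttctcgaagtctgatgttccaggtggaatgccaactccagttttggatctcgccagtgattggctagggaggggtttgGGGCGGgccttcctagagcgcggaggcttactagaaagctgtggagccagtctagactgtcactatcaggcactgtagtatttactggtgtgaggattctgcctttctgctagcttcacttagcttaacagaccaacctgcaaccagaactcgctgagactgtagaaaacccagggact

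The printed Nr3c1 window held 4 GC boxes and was 79.0% G and C, and the other Nr3c1 window held 1 at 66.0%. Esrra held 3 at 72.0%, Pgr held 1 at 47.7%, and Esr1 (59.7%) and Esr2 (54.7%) held none. Over the 33469 windows of the table the median was 51.7% G and C, and 33.06% held a GC box. None of the 6 receptor windows held the estrogen receptor core AGGTCA (16.18% of all windows), the longer Esrra word TNAAGGTCA (1.2%), or the palindrome GGTCANNNTGACC (0.03%). The glucocorticoid core AGAACA (20.68%) and the palindrome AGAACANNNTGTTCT (0.01%) were also not found. Both strands were read, the AGGTCA core lies within the Esrra word, and the AGAACA core lies within its palindrome. A match of letters is only a description, and its absence says nothing on binding elsewhere.

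Signals are MAS5 values, a linear brightness scaled by the authors to a common mean per array. They cannot be compared between probe sets, so each receptor is described against itself across arrays. A probe set was compared between diets only if its mean log2 signal lay outside the lowest 40% of all probe sets, which corresponds to a geometric mean of 162 or more. Nr3c2, at 271.8, was the nearest receptor above that line, while Pgr at 120.3 and Esrra at 116.1 lay just under it. The control probe sets for the bacterial tryptophan genes read 1.3 to 39.1 over the 10 arrays. The labels do not say whether that RNA was added, so they serve only as an example of very dim probe sets.

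**Figure D1:**
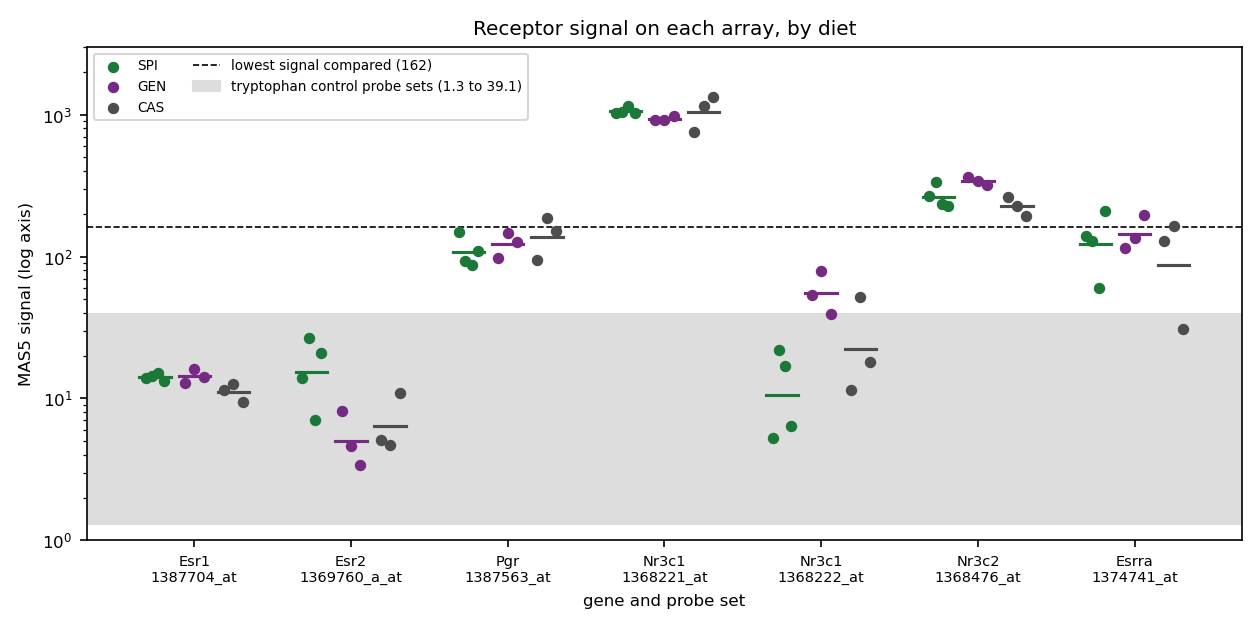
MAS5 signal (log axis) of the 7 receptor probe sets on each of the 10 arrays, with SPI, GEN and CAS side by side; points are arrays, short bars are means of log2 signal, the dashed line is the lowest signal compared (162) and the grey band spans the tryptophan control probe sets (1.3 to 39.1). Nr3c1 1368221_at and Nr3c2 lie above the line on all 10 arrays, Pgr and Esrra straddle it, and Esr1, Esr2 and the SPI arrays of Nr3c1 1368222_at lie in the band.

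Nr3c1, the glucocorticoid receptor, was the receptor read most clearly, by probe set 1368221_at. Its signal was 1035.4, 1045.6, 1157.0 and 1030.8 on the SPI arrays, 921.7, 914.8 and 977.1 on the GEN arrays, and 754.8, 1152.2 and 1326.2 on the CAS arrays. SPI and GEN arrays each fell in a narrow range, with all SPI values above all GEN values, while the CAS arrays spread wider than both and held the lowest and the highest of the 10. The means were 1067 ± 60.19 for SPI (SD, n = 4), 937.9 ± 34.15 for GEN (SD, n = 3) and 1078 ± 292.9 for CAS (SD, n = 3). The log2 difference was 0.02 ± 0.17 in SPI against CAS (SE; 95% interval -0.35 to 0.40; limma, adjusted p = 0.9927) and -0.16 ± 0.19 in GEN against CAS (-0.56 to 0.24; adjusted p = 0.8924). Between SPI and GEN it was 0.19 ± 0.17 (-0.19 to 0.56; adjusted p = 0.7833). In order of mean log2 signal the diets ran SPI, CAS, GEN, and no neighbouring pair differed beyond its spread.

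The order rested on single arrays. Without CAS 1, the array with the lowest Nr3c1 signal, the log2 difference was -0.21 in SPI against CAS and -0.40 in GEN against CAS (unadjusted p = 0.02043, limma adjusted p = 0.6209). Without CAS 3 it was 0.01 in GEN against CAS, and without SPI 4 it was -0.02 in SPI against CAS. SPI was above GEN in all 20 settings tried, by 0.02 to 0.25 on the log2 scale, with limma adjusted p from 0.6619 to 0.9978. Several of these settings, such as another filter or leaving out a CAS array, cannot alter this difference, so the count overstates its stability.

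The other Nr3c1 probe set, 1368222_at, read 5.3, 21.9, 16.9 and 6.4 on the SPI arrays, 53.9, 78.8 and 39.2 on the GEN arrays and 11.5, 52.1 and 18.1 on the CAS arrays. All GEN values were above all SPI values, and CAS overlapped both. On 3 arrays the value was no higher than the brightest tryptophan control of the same array, and the probe set is too dim to compare. In a fit with no filter on dim probe sets, its log2 difference in SPI against GEN was -2.38 ± 0.65 (SE; unadjusted p = 0.003491, limma adjusted p = 0.5662 over 15866 probe sets). At this signal the value gives no direction for Nr3c1.

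Nr3c2, the mineralocorticoid receptor, had its highest signals on the GEN arrays. Probe set 1368476_at read 268.1, 338.0, 235.9 and 227.5 on the SPI arrays, 364.4, 339.2 and 318.1 on the GEN arrays, and 262.3, 227.4 and 192.6 on the CAS arrays. Every GEN value was above every CAS value, and SPI overlapped CAS, while SPI 3 reached into the GEN range. The means were 267.4 ± 50.23 for SPI (SD, n = 4), 340.6 ± 23.18 for GEN (SD, n = 3) and 227.4 ± 34.85 for CAS (SD, n = 3). GEN was 1.507-fold CAS (95% interval 1.119 to 2.029), a log2 difference of 0.59 ± 0.20 (SE; interval 0.16 to 1.02) with an unadjusted p of 0.01069. After Benjamini-Hochberg adjustment over 9520 probe sets the limma p was 0.8254, so the difference did not pass. Over 19 settings it lay between 0.48 and 0.70 on the log2 scale, with adjusted p from 0.6131 to 0.9927.

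For the other pairs the Nr3c2 differences were smaller. SPI against CAS gave 0.23 ± 0.19 on the log2 scale (SE; 95% interval -0.17 to 0.63; limma adjusted p = 0.9873). SPI against GEN gave -0.36 ± 0.19 (-0.77 to 0.04; adjusted p = 0.6384). The diets ran GEN, SPI, CAS in order of mean log2 signal, and neither neighbouring pair differed beyond the spread of the arrays.

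The count of receptors has to be read against the whole array. In SPI against CAS, GEN against CAS and SPI against GEN, 0 of the 2 bright receptor probe sets passed an adjusted p of 0.05, and so did 0.0% of all 9520 probe sets in each comparison (limma). The smallest adjusted p over all probe sets was 0.1701, 0.06424 and 0.1322 in the same order of comparisons. With no adjustment, 459 probe sets (4.82%) had a p under 0.05 in SPI against CAS, 561 (5.89%) in GEN against CAS and 757 (7.95%) in SPI against GEN. Nr3c2 was among them in GEN against CAS, and Nr3c1 was among them in none. Diets did not overlap in 4.6% of all probe sets in SPI against CAS, 11.1% in GEN against CAS and 8.5% in SPI against GEN. The ones higher in the diet named first made up 1.78%, 5.7% and 4.13% of all probe sets; Nr3c2 was among them in GEN against CAS and Nr3c1 in SPI against GEN. Comparisons that share arrays of a diet are not independent of each other.

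**Figure D2:**
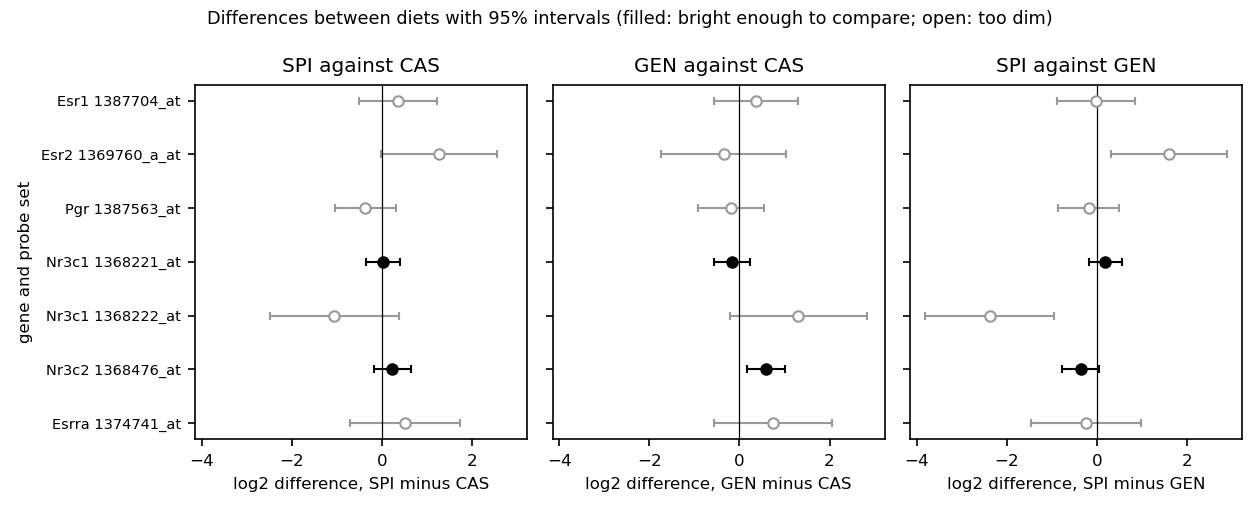
Log2 difference of each receptor probe set with its 95% interval, in SPI against CAS, GEN against CAS and SPI against GEN; filled points were bright enough to compare and open points were too dim. The interval of Nr3c2 in GEN against CAS (0.16 to 1.02) is the only filled one that leaves out 0, and the open points have wider intervals.

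Pgr, the progesterone receptor and a standard readout of estrogen action, read 148.8, 93.5, 86.6 and 110.2 on the SPI arrays, 98.2, 145.7 and 126.5 on the GEN arrays and 94.1, 186.3 and 150.9 on the CAS arrays (probe set 1387563_at). The 3 diets overlapped throughout. CAS 2 was the 1 array above the signal of 162. The means were 109.8 ± 27.84 for SPI (SD, n = 4), 123.5 ± 23.89 for GEN (SD, n = 3) and 143.8 ± 46.51 for CAS (SD, n = 3). In the fit with no filter the log2 differences were -0.37 ± 0.31 in SPI against CAS, -0.18 ± 0.33 in GEN against CAS and -0.18 ± 0.31 in SPI against GEN (SE). Their 95% intervals reached down to -1.05, -0.91 and -0.86 and up to 0.32, 0.55 and 0.50. Differences anywhere within these intervals remain compatible with the values at this signal.

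Esrra, which with its coactivators turns on genes of mitochondrial energy production, read 140.6, 129.1, 60.1 and 208.0 on the SPI arrays, 114.1, 134.5 and 196.5 on the GEN arrays and 129.3, 164.2 and 30.7 on the CAS arrays (probe set 1374741_at). Each diet held both low and high arrays, and the lowest, CAS 3, and the highest, SPI 5, differed 6.775-fold. The means were 134.4 ± 60.56 for SPI (SD, n = 4), 148.4 ± 42.91 for GEN (SD, n = 3) and 108.1 ± 69.24 for CAS (SD, n = 3). The log2 differences were 0.50 ± 0.56 in SPI against CAS, 0.74 ± 0.60 in GEN against CAS and -0.24 ± 0.56 in SPI against GEN (SE, no filter).

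The 2 estrogen receptors were at the dim end of the array. Esr1 read 14.0, 14.5, 15.1 and 13.2 on the SPI arrays, 12.8, 16.1 and 14.2 on the GEN arrays and 11.4, 12.6 and 9.5 on the CAS arrays (probe set 1387704_at). All SPI and all GEN values were above all CAS values, but on 5 arrays the value was no higher than the brightest tryptophan control of the same array. The log2 differences were 0.35 ± 0.40 in SPI against CAS, 0.37 ± 0.42 in GEN against CAS and -0.01 ± 0.40 in SPI against GEN (SE, no filter), so none was larger than its error. A signal this dim does not show that Esr1 RNA was absent.

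Esr2 read 13.9, 26.7, 7.0 and 20.9 on the SPI arrays, 8.1, 4.6 and 3.4 on the GEN arrays and 5.1, 4.7 and 10.9 on the CAS arrays (probe set 1369760_a_at). SPI 4 overlapped both other diets, and on 7 arrays the value was no higher than the brightest tryptophan control of the same array. The highest control signals per array were 5.1 to 10.2 on SPI arrays, 18.7 to 39.1 on GEN arrays and 5.2 to 22.4 on CAS arrays. With no filter the log2 difference in SPI against GEN was 1.60 ± 0.59 (SE; unadjusted p = 0.01926, limma adjusted p = 0.6085). It was 1.26 ± 0.59 in SPI against CAS and -0.35 ± 0.63 in GEN against CAS. These values are given for completeness, because signals this low do not carry a comparison.

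Genes whose signal followed the 2 bright receptors over the 10 arrays were listed by Pearson's r as a description. Each gene and receptor were read on the same arrays, with the same scaling. For Nr3c1 they were Cdipt, the phosphatidylinositol synthase (r = 0.962), Htra2, a mitochondrial serine protease (r = 0.949), and Rgs3, a regulator of G-protein signalling (r = 0.923), among 9 probe sets above 0.9. Nr3c2 was followed by Kdm3a, a histone demethylase (r = 0.935), Hap1, a huntingtin-associated protein (r = 0.919), and Cnih4, a cornichon family member (r = 0.890), with 2 probe sets above 0.9. For GEN against CAS the log2 differences of the 3 genes most like Nr3c2 were 0.34 for Kdm3a, 0.69 for Hap1 and 0.41 for Cnih4. These genes were picked for following Nr3c2 over the same arrays. That choice favours differences of the same sign, so they add no separate reading.

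The signal of cell type marker genes differed between arrays, and in bulk tissue fewer cells of a type and less RNA per cell cannot be told apart. The mean log2 signal of 13 luminal epithelial genes was 9.272 to 10.433 on SPI arrays, 10.425 to 10.900 on GEN arrays and 9.905 to 10.594 on CAS arrays, and all 13 were lower in SPI than in GEN. The 9 basal and myoepithelial genes averaged 9.230 to 10.083 on SPI arrays, 9.761 to 10.447 on GEN arrays and 9.586 to 10.131 on CAS arrays. In GEN against CAS, where no Nr3c2 value overlapped, 8 of the 9 basal genes and 11 of the 13 luminal genes were above 0. In the same comparison 13 of 14 fibroblast genes (median log2 difference -0.34), 11 of 13 macrophage genes (-0.47) and 6 of 6 muscle genes (-0.54) were below 0. The part of these lists in the Nr3c2 difference was not tested. In SPI against CAS 12 of 13 luminal genes (median -0.30), 12 of 14 fibroblast genes (-0.47), 13 of 13 macrophage genes (-0.65) and 6 of 6 muscle genes (-0.63) were below 0, and 10 of 10 endothelial genes (0.19) were above 0. None of these marker genes passed an adjusted p of 0.05 in any comparison.

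Nr3c1 ran against skeletal muscle, luminal and basal genes across the arrays. With muscle genes Pearson's r over the 10 arrays was -0.727 (permutation p = 0.02185, adjusted p = 0.1786 over 12 relations) and Spearman's rho was -0.770 (permutation p = 0.01249, adjusted p = 0.1499), so neither passed. With luminal genes r was -0.541 and rho -0.697 (permutation p = 0.03094, adjusted p = 0.1758). With basal and myoepithelial genes r was -0.6 and rho -0.661 (permutation p = 0.04395, adjusted p = 0.1758). After quantile normalization rho was -0.758 with luminal, -0.745 with basal and -0.612 with muscle genes. The mean log2 signal of the 6 muscle genes was 10.080 on CAS 1, the array with the lowest Nr3c1 signal, and 7.802 to 8.349 on the other arrays. Without CAS 1 and SPI 3, the 2 arrays farthest from the median, r was -0.459, so the relation rests on them. Within diets, on residuals after the diet means, r was -0.914 (permutation p = 0.00239, adjusted p = 0.02868). Spearman's rho on them was -0.624 (adjusted p = 0.2632), and r was -0.516 without CAS 1 and CAS 3. The permutation treated the residuals as interchangeable between diets. They were centred within each diet and spread unequally (SD of the muscle mean 1.104 in CAS and 0.02 in GEN). Its p-values on residuals are therefore not exact.

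Nr3c2 ran with the basal and myoepithelial genes, with r = 0.689 (permutation p = 0.02976, adjusted p = 0.1786) and rho = 0.624 (permutation p = 0.05952, adjusted p = 0.1786) over the 10 arrays. Without GEN 5 and SPI 4 r was 0.712, and within diets it was 0.577 (adjusted p = 0.417). The 12 relations set each of the 2 receptors beside luminal, basal, adipocyte, fibroblast and skeletal muscle genes and the actin 3′ to 5′ ratio, a sign of RNA integrity. Over the 10 arrays none of the 12 had an adjusted p under 0.05. Within diets the r of Nr3c1 with muscle genes had one (0.02868), by the permutation that is not exact on residuals. The actin ratio was 5.15 ± 2.001 on SPI arrays (SD, n = 4), 3.908 ± 1.168 on GEN arrays (SD, n = 3) and 4.6 ± 0.497 on CAS arrays (SD, n = 3), with SPI 4 the highest at 7.772. Its r was 0.145 with Nr3c1 and -0.078 with Nr3c2.

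**Figure D3:**
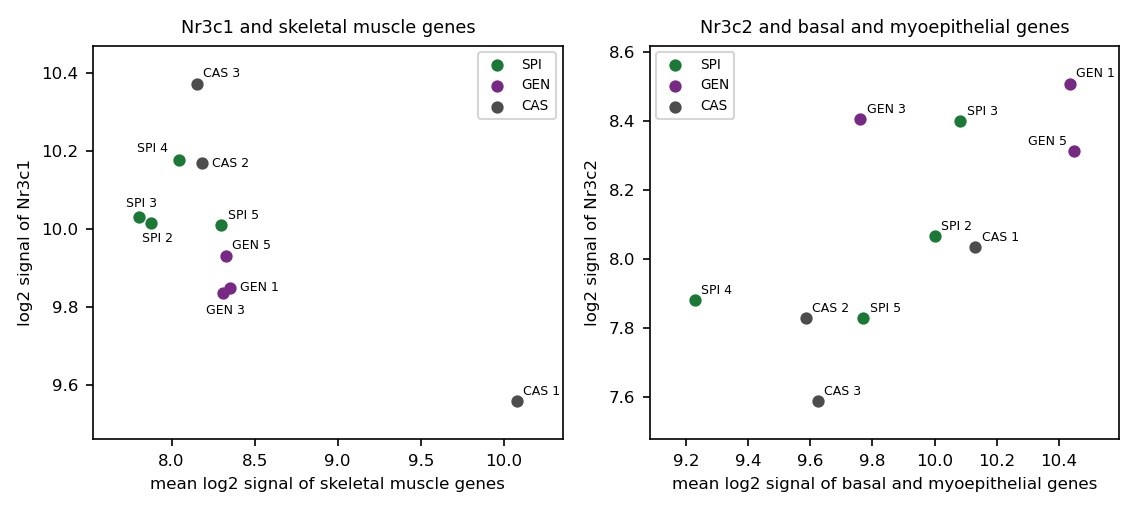
Log2 signal of Nr3c1 (1368221_at) against the mean log2 signal of skeletal muscle genes (left) and of Nr3c2 (1368476_at) against that of basal and myoepithelial genes (right); each point is 1 of the 10 arrays, coloured by diet. CAS 1 lies alone at a muscle mean of 10.080 with the lowest Nr3c1 signal, and the GEN arrays lie at the upper end for Nr3c2.

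The genes around the receptors were described from 9 lists, by the share of measured genes above 0 and the median log2 difference, beside all 7119 genes tested, of which 48.3% were above 0 in SPI against CAS, 46.2% in GEN against CAS and 51.1% in SPI against GEN. The medians of all genes were -0.01, -0.02 and 0.01 in these comparisons. In no list did a gene pass an adjusted p of 0.05 in any comparison (limma, 0.0% of all probe sets). For each list the 2 genes with the smallest p in each comparison were selected. The differences printed below come from that selection, but not all of it is printed. Adjusted p-values are limma's. Of the 51 differences so selected, 32 moved by over 1.5 times when 1 array was left out, and none of the 51 changed sign. They were selected by smallest p, and leaving out an array of the third diet cannot change a difference. The kept signs therefore say little. Without CAS 3 the differences in SPI against CAS were -0.32 for Gata3, 0.22 for Klf9, 0.21 for Cebpd and 0.34 for Usp2. Without GEN 5 they were 0.44 for Atp1b1 and 0.08 for Fkbp5 in SPI against GEN, and 0.15 for St13 in GEN against CAS. Without CAS 1 they were 0.22 for Acadm and 0.10 for Hsd11b1 in GEN against CAS.

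**Figure D4:**
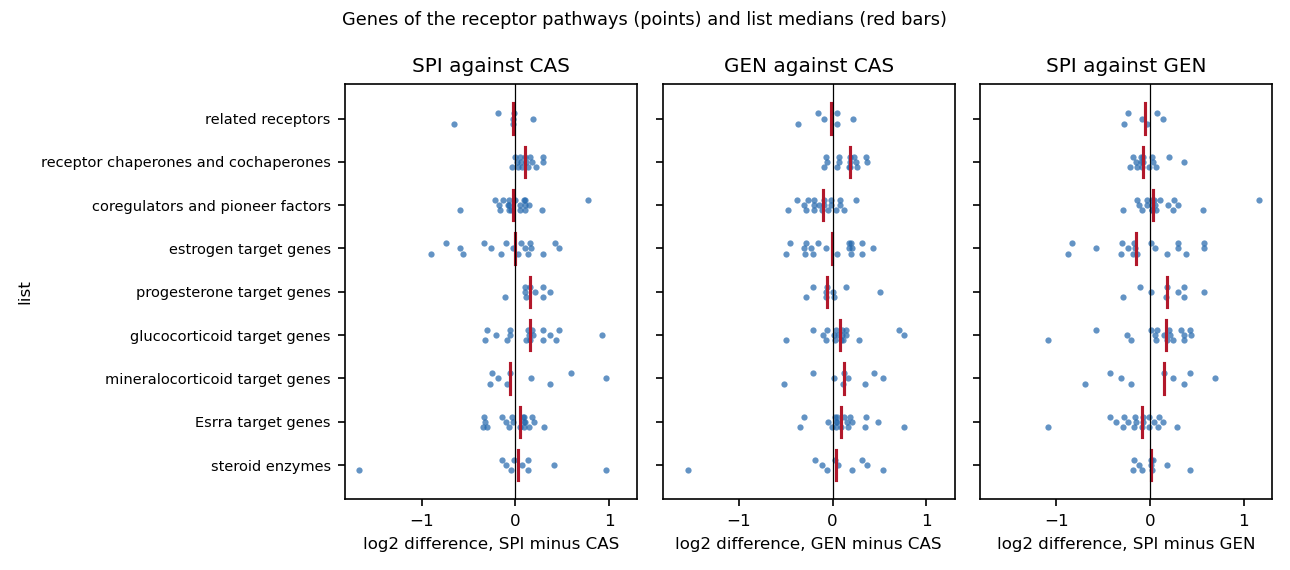
Log2 differences of the genes of the 9 lists (points) and each list's median (red bars), in SPI against CAS, GEN against CAS and SPI against GEN. Chaperones sit to the right of 0 in 14 of 15 genes in SPI against CAS and 12 of 15 in GEN against CAS, and most other lists spread to both sides.

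Chaperones fold the unliganded receptors and hold them ready for hormone. Of 15 genes measured, 14 were above 0 in SPI against CAS (median log2 difference 0.10), 12 in GEN against CAS (median 0.18) and 5 in SPI against GEN (median -0.07). Hsp90ab1, the core chaperone of steroid receptors, averaged 9010 ± 608.7 on GEN arrays and 7010 ± 673.9 on CAS arrays (SD, n = 3 each), with no overlap, and 8155 ± 658.1 on SPI arrays (SD, n = 4). Its log2 difference was 0.36 ± 0.12 in GEN against CAS (SE; limma adjusted p = 0.8254), and a second probe set gave 0.23. St13, the heat shock protein binding cochaperone, gave 0.26 ± 0.14 in GEN against CAS, also with no overlap, and 0.25 by a second probe set. Fkbp5, a cochaperone that glucocorticoids induce, gave 0.36 ± 0.27 in SPI against GEN, with overlap. Dnaja1, a heat shock cochaperone, gave 0.29 ± 0.20 in SPI against CAS, and a second probe set gave 0.04.

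Coactivators and corepressors carry the signal of bound receptors to chromatin, and pioneer factors open it. Of 20 such genes 10 were above 0 in SPI against CAS, 5 in GEN against CAS and 14 in SPI against GEN, with medians of -0.02, -0.10 and 0.03. Cited2, a coregulator, averaged 1479 ± 255.1 on GEN arrays and 2050 ± 229.5 on CAS arrays (SD, n = 3 each) with no overlap, a log2 difference of -0.48 ± 0.20 (SE; adjusted p = 0.8254), while its other probe set gave 0.05. Gata3, a luminal factor that works with Esr1, averaged 200.6 ± 50.86 on SPI arrays (SD, n = 4) and 306.6 ± 108.4 on CAS arrays (SD, n = 3), a log2 difference of -0.59 ± 0.29 (SE; adjusted p = 0.9873) with overlap. Safb, which represses Esr1, read 321.4, 268.9, 261.4 and 235.9 on SPI arrays, and 197.0, 41.9 and 214.7 on GEN arrays. The difference was 1.16 ± 0.47 (SE; adjusted p = 0.5828), and it was 0.39 without GEN 3. Nr2f2 gave 0.57 ± 0.19 in SPI against GEN (adjusted p = 0.5585), with overlap, and 0.33 by a second probe set.

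Of the related receptors, 6 of 12 on the array were bright enough, and 1, 3 and 2 of the 6 were above 0 in SPI against CAS, GEN against CAS and SPI against GEN. Rara, a retinoic acid receptor, averaged 215.6 ± 93.84 on SPI arrays (SD, n = 4) and 320.8 ± 51.69 on CAS arrays (SD, n = 3), a log2 difference of -0.65 ± 0.41 (SE) with overlap. Esrrb, the relative of Esrra, gave -0.23 ± 0.19 in SPI against GEN. Pgrmc2, a membrane progesterone receptor component, gave -0.16 ± 0.16 in GEN against CAS and 0.14 ± 0.15 in SPI against GEN, and a second probe set gave -0.05 and 0.06. Pparg, the adipocyte receptor for fatty acid ligands, gave 0.19 ± 0.16 in SPI against CAS and 0.22 ± 0.17 in GEN against CAS. Vdr, Rxra, Thrb and Gper1 were on the array but too dim.

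Estrogen target genes lay on both sides of 0. Of 18 genes 9 were above 0 in SPI against CAS (median -0.00), 9 in GEN against CAS (median -0.01) and 8 in SPI against GEN (median -0.15). With no adjustment 5 of 18 had a p under 0.05 in SPI against CAS, 0 in GEN against CAS and 4 in SPI against GEN, where all genes had 5.0%, 5.9% and 7.81%. Egr3, an early growth response factor, read 192.0, 242.1, 153.3 and 231.6 on the SPI arrays, 390.4, 332.1 and 387.5 on the GEN arrays, and 303.7, 347.3 and 247.6 on the CAS arrays. All SPI values lay under all GEN and all CAS values. The log2 difference was -0.87 ± 0.20 in SPI against GEN (SE; limma adjusted p = 0.40) and -0.56 ± 0.20 in SPI against CAS (limma adjusted p = 0.9538). Sgk3, a kinase, averaged 131.6 ± 60.2 on SPI arrays (SD, n = 4) and 226.4 ± 36.78 on CAS arrays (SD, n = 3) with no overlap, a log2 difference of -0.90 ± 0.32 (SE; adjusted p = 0.979).

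Areg, the growth factor through which estrogen drives duct growth, averaged 717 ± 173.8 on SPI arrays (SD, n = 4) and 481.3 ± 130.9 on GEN arrays (SD, n = 3), a log2 difference of 0.58 ± 0.21 (SE; adjusted p = 0.5631) with overlap. For GEN against CAS the genes with the smallest p were Nherf1, a scaffold protein (0.31 ± 0.17, and -0.02 by a second probe set), and Tff1, a trefoil peptide (-0.50 ± 0.30). Both overlapped between the diets, and Tff1 was -0.14 without GEN 1 and -0.79 without GEN 3. Krt19 and Prlr stand in this list and among the luminal genes, which were lower in SPI than in GEN, and the part of the cell mix in these values was not tested.

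Of 9 progesterone target genes bright enough, 8 were above 0 in SPI against CAS (median 0.16), 4 in GEN against CAS (median -0.06) and 7 in SPI against GEN (median 0.18). Wnt4 and Tnfsf11, the best known progesterone targets of luminal cells, were not among them. Klf9, Fkbp5, Tsc22d3 and Cebpb also stand in the glucocorticoid list, and Areg and Ccnd1 in the estrogen list. These lists are therefore not separate readings. Klf9, a zinc finger factor that glucocorticoids also induce, averaged 4729 ± 1085 on SPI arrays (SD, n = 4) and 3638 ± 620 on CAS arrays (SD, n = 3) with no overlap. The log2 difference was 0.37 ± 0.18 (SE; adjusted p = 0.9873), and 2 other probe sets gave -0.32 and -0.06. Ccnd1, a cyclin of the cell cycle, gave 0.30 ± 0.14 in SPI against GEN (adjusted p = 0.6254), and its other probe sets gave 0.38 and -0.26. Id4, an inhibitor of basic helix-loop-helix factors, gave 0.50 ± 0.25 in GEN against CAS, with overlap, and 0.08 by a second probe set. Without CAS 2 it was 0.15.

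Glucocorticoid target genes were above 0 in 12 of 18 in SPI against CAS (median 0.16), 13 of 18 in GEN against CAS (median 0.08) and 14 of 18 in SPI against GEN (median 0.17). Dusp1, a phosphatase that shuts off MAP kinases, averaged 6790 ± 764.3 on GEN arrays and 9606 ± 1116 on CAS arrays (SD, n = 3 each) with no overlap. The log2 difference was -0.50 ± 0.17 (SE; limma adjusted p = 0.8254), but a second probe set gave 0.49. Pdk4, a kinase that spares glucose, read 516.7, 283.5, 193.8 and 551.8 on SPI arrays, 493.7, 902.9 and 957.4 on GEN arrays and 560.7, 396.0 and 391.9 on CAS arrays. It gave -1.09 ± 0.34 in SPI against GEN (adjusted p = 0.5585) and 0.76 ± 0.37 in GEN against CAS (adjusted p = 0.8254), with overlap in both. Cdkn1a, a cell cycle inhibitor, gave 0.92 ± 0.38 in SPI against CAS (adjusted p = 0.9873) and 0.65 by a second probe set, with overlap. Cebpd gave 0.43 ± 0.18 in SPI against CAS (adjusted p = 0.9873), with overlap, and 0.27 and -0.04 by its other probe sets.

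Mineralocorticoid target genes handle sodium transport in kidney and other epithelia. Of 9 genes 4 were above 0 in SPI against CAS (median -0.06), 7 in GEN against CAS (median 0.12) and 5 in SPI against GEN (median 0.15). Nedd4l, a ubiquitin ligase that removes the epithelial sodium channel, read 214.7, 196.7, 244.9 and 177.7 on SPI arrays, 383.6, 331.6 and 293.9 on GEN arrays and 195.6, 254.9 and 298.6 on CAS arrays. All SPI values lay under all GEN values, and the log2 difference was -0.69 ± 0.20 (SE; limma adjusted p = 0.4789). Atp1b1, a subunit of the sodium pump, averaged 929.2 ± 97.99 on SPI arrays (SD, n = 4) and 593 ± 179.7 on GEN arrays (SD, n = 3) with no overlap, a log2 difference of 0.69 ± 0.20 (SE; adjusted p = 0.4789), and 0.11 by a second probe set. In GEN against CAS, where Nr3c2 was higher, Atp1b1 was lower and had the smallest p of the list. Its log2 difference there was -0.52 ± 0.21 (SE; limma unadjusted p = 0.02822, adjusted p = 0.8254), with overlap, and -0.18 by a second probe set. Nedd4l gave 0.44 ± 0.21 in GEN against CAS (adjusted p = 0.8254), also with overlap. Usp2, a ubiquitin protease, gave 0.59 ± 0.24 in SPI against CAS (adjusted p = 0.9873) but -0.66 by a second probe set.

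Of the 19 Esrra target genes of mitochondrial metabolism, 10 were above 0 in SPI against CAS (median 0.05), 15 in GEN against CAS (median 0.09) and 5 in SPI against GEN (median -0.08). Acadm, an enzyme of fatty acid oxidation, averaged 1494 ± 64.22 on GEN arrays and 1185 ± 204.8 on CAS arrays (SD, n = 3 each) with no overlap, a log2 difference of 0.35 ± 0.15 (SE; adjusted p = 0.8254). Ndufa4, of the respiratory chain, gave 0.48 ± 0.21 (adjusted p = 0.8254), with overlap. Mfn2, which fuses mitochondria, averaged 863.6 ± 70.28 on SPI arrays (SD, n = 4) and 697.7 ± 68.08 on CAS arrays (SD, n = 3) with no overlap, a log2 difference of 0.31 ± 0.14 (SE; adjusted p = 0.9873). Cpt1a, the gatekeeper of fatty acid entry, gave -0.33 ± 0.16 in SPI against CAS with no overlap, and -0.37 by a second probe set.

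Enzymes that make or remove steroids were above 0 in 5 of 10 in SPI against CAS (median 0.03), 6 of 10 in GEN against CAS (median 0.04) and 6 of 10 in SPI against GEN (median 0.01). Akr1c3, an aldo-keto reductase that acts on steroids, read 264.3, 199.5, 306.6 and 676.4 on SPI arrays, 237.6, 529.8 and 347.8 on GEN arrays, and 1929.7, 454.9 and 1235.4 on CAS arrays. CAS 1 and CAS 3 were the 2 highest, and CAS 2 lay within the range of the other diets. The log2 difference was -1.67 ± 0.48 in SPI against CAS (SE; limma adjusted p = 0.7503) and -1.54 ± 0.51 in GEN against CAS (limma adjusted p = 0.8254). For Akr1c3 in SPI against CAS it was -1.21 without CAS 1 and -2.26 without CAS 2, and in GEN against CAS it was -1.09 without CAS 1 and -2.13 without CAS 2. Hsd11b2, which shields Nr3c2 from glucocorticoids, gave 0.97 ± 0.38 in SPI against CAS (adjusted p = 0.9873), and its values were 218.1 to 447.6 on SPI arrays and 103.5 to 378.0 on CAS arrays. Without CAS 1 the Hsd11b2 difference was 0.57, and without CAS 2 it was 1.51. Hsd11b1, which regenerates active glucocorticoid, gave 0.37 ± 0.27 in GEN against CAS, and Sts, the steroid sulfatase, gave -0.17 ± 0.18 in SPI against GEN, both with overlap.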

How the data were processed

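Pooled mammary gland RNA was measured on 10 arrays of 1 colour (4 SPI, 3 GEN and 3 CAS, grouped by title), and the number of distinct pools is not known. The authors deposited 1 table of signal intensity on a linear scale. Per the submitters' processing notes it came from MAS5, with a version not given in the sources used here. Each array had a trimmed mean of 500.12 to 500.14, and no detection calls were used. The table held 15923 probe sets, of which 57 controls were left out. Of the rest 12783 had 1 symbol in the platform annotation, 312 several and 2771 none. Values under 1 (0.0637%) were set to 1 before log2. After the lowest 40% by mean log2 signal were left out, 9520 probe sets were tested with limma 3.58.1 in R 4.3.3 (lmFit, eBayes with an intensity trend, all 10 arrays in 1 fit, 7 residual degrees of freedom, Benjamini-Hochberg per comparison). Pathway lists used the brightest probe set of each gene, and 2 genes per list and comparison were selected by smallest p. The 3 probe sets most correlated with each bright receptor were named. The members and lists were chosen with earlier results of these data known. Simulated data had 9520 probe sets with independent noise, and 200 of them were changed, by 1 or by 2 on the log2 scale. Of those changed by 1 the test called 83% in SPI against CAS, 77% in GEN against CAS and 79% in SPI against GEN. The simulation held no variation shared between probe sets, so these shares do not say what would be found on the real arrays. Precision was limited by the number of arrays, with a median 95% interval reaching 0.41, 0.44 and 0.41 to either side in these comparisons. Array pairs of the same diet had a median correlation of 0.9522, and pairs of different diets 0.9513. Alternatives changed the filter, scaling, floor, variance model, arrays in the fit, a covariate for RNA integrity, a replicate block and 1 array at a time.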

Additional observations from a re-analysis of the deposited data

Results flagged for a closer look

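In the SPI group of 4 arrays, 53 measures (named probe sets, marker means and RNA integrity ratios) were examined for an array far from the rest, and 3 had one. Chance gives about 1 in 20. Nr3c1 (1368221_at) was 1157.0 on SPI 4 and 1030.8 to 1045.6 on the other SPI arrays. Klf9 (1370209_at) was 6352.8 on SPI 4 and 4096.2 to 4262.3 on the other SPI arrays. Nr2f2 (1389554_at) was 1826.4 on SPI 5 and 2464.0 to 2577.3 on the other SPI arrays. SPI 4 also had the highest actin 3′ to 5′ ratio of the 10 arrays, 7.772, and its part in these values was not tested.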

How the results depend on the processing

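In the 2 bright receptors no alternative gave an adjusted p under 0.05. Nr3c2 kept its sign in all 3 comparisons over 19 settings. Some of these, such as leaving out an array of the third diet, cannot change a difference. For Nr3c2 SPI against CAS lay between 0.11 and 0.42 and SPI against GEN between -0.48 and -0.24. Nr3c2 gave no value when the lowest 60% of probe sets were left out. Nr3c1 in SPI against CAS was -0.13 with the replicate block, and -0.21 to 0.19 when 1 array was left out in turn. Nr3c1 in GEN against CAS was -0.40 to 0.01 when 1 array was left out in turn. The cause of these changes was not tested.

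Over all probe sets, leaving out 1 array gave 0 to 2 called probe sets in SPI against CAS, 0 to 1 in GEN against CAS and 0 to 1 in SPI against GEN. Without SPI 2 the called probe sets were RT1-CE16 and RT1-Bb in SPI against CAS, and RT1-CE16 in SPI against GEN. Without CAS 1 it was Apod in GEN against CAS. For SPI against GEN it was Rpl37a without GEN 5, Il17b without CAS 2 and a probe set with no symbol without CAS 3. Leaving out the lowest 60% gave 2 in GEN against CAS (Apod and a probe set with no symbol), and fitting only the arrays of both diets gave 2 in SPI against GEN (Il17b and a probe set with no symbol). None was a receptor. These genes were named after their values were seen.

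The counts at an unadjusted p under 0.05 were 270 to 776 in SPI against CAS, 354 to 884 in GEN against CAS and 286 to 1213 in SPI against GEN over all settings. The highest count of each comparison came from the fit with no filter, over 15866 probe sets in place of 9520. The lowest counts were over 9520, so the ends of these ranges are not like for like. Centring each array on its median moved the share with the first diet higher to 63.3%, against 31.8% as reported, in SPI against CAS, and to 69.2%, against 46.5%, in SPI against GEN. The same centring turned the list medians of related receptors, coregulators and mineralocorticoid targets in SPI against CAS to 0.05, 0.05 and 0.01, where the median of all genes was 0.06. It also put estrogen targets at 0.07 (-0.00 as reported) and basal markers at 0.05 (-0.02) in SPI against CAS, and related receptors at 0.01 (-0.05) in SPI against GEN. Quantile normalization put steroid enzymes in SPI against GEN at -0.01 (0.01). Of the pairs of samples with the same number in different diets, 1 of 6 had deviations correlated above 0.1 (-0.183 to 0.155). Of the pairs with another number, 11 of 27 did (-0.396 to 0.302). With so few arrays per diet, these values cannot tell whether equal numbers mark anything shared. With the replicate block 0 probe sets were called in each comparison, and 270, 416 and 286 had an unadjusted p under 0.05. On residuals after the diet means, r was -0.914 for Nr3c1 and skeletal muscle. Its adjusted p was under 0.05, by a permutation that is not exact on residuals. On the same residuals r was 0.304 for Nr3c2 and skeletal muscle (-0.031 over the arrays as they were) and 0.276 for Nr3c2 and the actin ratio (-0.078).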
